A study of Mus musculus with 2 samples.

Results

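The open chromatin of 9 genes that encode metabolic nuclear receptors of the liver was described: Nr1h3, Nr1i2, Nr1i3, Rxra, Nr5a2, Nr3c1, Thrb, Esrra and Nr2f6. The genes were picked by name, with earlier results of these data known. Every accessible region that the deposited table assigned to one of these symbols by its closest transcription start site (TSS) was kept, which gave 80 of 69549 regions. A region was called promoter when its centre lay within 1000 bp of that TSS, which gave 12 of 14387 promoter regions, and the other 68 of 55162 regions lay beyond. The study asked how hepatocyte METTL3, the enzyme that writes N6-methyladenosine on RNA, affects the liver, and this assay compared open chromatin (ATAC-seq, in which a transposase cuts accessible DNA) between 2 liver libraries. FF was Mettl3 flox/flox, with both Mettl3 alleles floxed and no Cre, and HKO was Mettl3 flox/flox with Alb-Cre, a Cre transgene under the albumin promoter that is active in hepatocytes and leaves other liver cells floxed but undeleted. Both groups were C57BL/6, were fed normal chow and were 8 weeks old. Each library was pooled from 4 mice, so that there was 1 library in each group and no replicate error could be computed.

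Nuclear receptors are transcription factors that are switched by small lipophilic ligands or act without a known ligand. LXR alpha (Nr1h3) senses oxysterols and drives cholesterol efflux and lipogenesis, PXR (Nr1i2) and CAR (Nr1i3) sense drugs and bile acids and induce detoxifying enzymes, and thyroid hormone receptor beta (Thrb) is the main thyroid hormone receptor of hepatocytes. All of these bind DNA as dimers with the shared partner RXR alpha (Rxra). The glucocorticoid receptor (Nr3c1) acts in stress and fasting, LRH-1 (Nr5a2) activates bile acid synthesis, ERR alpha (Esrra) mitochondrial genes, and Nr2f6 is an orphan receptor.

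The promoters at which the libraries differed most and least are shown by the 250 bases before their RefSeq start (GRCm38.p6, 5′ to 3′ on the gene's strand). Nr1i3 at chr1:171213720-171213969 on the plus strand had the lowest ratio, and Nr1i2 at chr16:38294825-38295074 on the minus strand, its closest relative in the receptor family, had the ratio nearest to 0. Rxra at chr2:27676951-27677200 on the plus strand is the common partner, and Thrb at chr14:17660710-17660959 on the plus strand is the upstream start that the table did not use. Capitals mark GC boxes (GGGCGG), the nuclear receptor half-site (AGGTCA), the CCAAT box (CCAAT) and the TATA box (TATAAA), searched on both strands.
Nr1i3: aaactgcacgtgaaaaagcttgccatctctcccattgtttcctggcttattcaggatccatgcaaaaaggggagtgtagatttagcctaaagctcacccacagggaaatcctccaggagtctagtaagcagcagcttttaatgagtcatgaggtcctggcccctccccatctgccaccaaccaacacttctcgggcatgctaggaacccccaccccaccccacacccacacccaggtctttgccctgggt
Nr1i2: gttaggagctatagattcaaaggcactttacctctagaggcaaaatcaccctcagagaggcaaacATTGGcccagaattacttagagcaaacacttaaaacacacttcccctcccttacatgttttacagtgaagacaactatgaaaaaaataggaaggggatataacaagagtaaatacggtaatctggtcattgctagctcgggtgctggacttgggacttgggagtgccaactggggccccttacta
Rxra: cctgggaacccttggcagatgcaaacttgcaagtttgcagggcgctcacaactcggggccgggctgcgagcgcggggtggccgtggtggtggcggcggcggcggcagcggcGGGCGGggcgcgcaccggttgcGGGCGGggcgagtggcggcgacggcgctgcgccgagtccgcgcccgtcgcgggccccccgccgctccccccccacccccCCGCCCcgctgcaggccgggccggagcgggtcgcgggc
Thrb: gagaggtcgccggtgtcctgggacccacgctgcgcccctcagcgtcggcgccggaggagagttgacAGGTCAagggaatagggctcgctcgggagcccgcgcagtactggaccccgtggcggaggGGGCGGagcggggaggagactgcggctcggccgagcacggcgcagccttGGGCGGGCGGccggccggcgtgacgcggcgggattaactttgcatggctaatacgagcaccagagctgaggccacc
Nr1i3 held none of these motifs in this window, and Nr1i2 held 1 CCAAT box, which starts 185 bases before the TSS. Rxra held 3 GC boxes, and Thrb held 3 GC boxes, a pair of them overlapping, and 1 half-site. Among 32851 RefSeq promoter windows of the same length, 32.7% held the GC box, 33.8% the CCAAT box, 14.0% the half-site and 12.4% the TATA box.

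The library totals behind the RPM values, which are counts scaled to library size, were 52826202 for FF and 58038305 for HKO, and 31.7% and 22.3% of them fell on the listed regions. The ratio of HKO over FF is given as log2 of RPM with 1 read added to each count, with a 95% exact (Clopper-Pearson) interval that covers counting error only. Duplicate reads had been kept, so that reads are not independent molecules. The median log2 ratio was -0.38 over all regions and -0.56 over promoter regions, so the values below are read against these medians. The interval and the exact binomial test compare the 2 libraries and not the genotypes. The targeted gene gives no check of the labels, because promoter accessibility does not report the deletion, and the Mettl3 promoter region had 566 reads in FF and 392 in HKO, a log2 ratio of -0.66. Promoter regions were present for 8 of 8 hepatocyte markers, with a median log2 ratio of -0.65. Of 8 endothelial markers, 7 had a promoter region, all were above 0 in HKO, 5 were at least 2-fold higher, and their summed counts were 153 in FF and 400 in HKO. None of these 7 was at 0 in either library, Pecam1 had no promoter region, and the part of endothelial cells in the results below was not tested. Summed counts were 53 and 112 for macrophage markers (2 of 8 with a region), 736 and 209 for stellate markers (3 of 8, of which Reln alone was lower in HKO, at 690 and 132) and 831 and 698 for cholangiocyte markers (5 of 8), and none of the 8 lymphocyte markers had a promoter region. In a bulk sample, fewer cells of a type and less open chromatin per cell cannot be told apart.

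All 12 promoter regions of the receptors were lower in the HKO library than in the FF library, with log2 ratios from -1.76 to -0.50 and a median of -0.79. This direction rests on the scale for 5 of the 8 genes, since after centring on the top 10% of promoters by signal the test called 6 of 12 lower, against 22.0% of all promoter regions, and 0 higher, against 33.8%, and Nr1i2 (0.15), Nr2f6 (0.088), Esrra (0.015), Nr1h3 (0.0076) and Nr5a2 (0.0036) stood above 0. Beside the background of 16.3% of all promoter regions that were at least 2-fold lower, 4 of 12 were at least 2-fold lower, and these were the 3 regions of Nr1i3, 1 of them a peak in FF alone, and 1 of Rxra. None was at least 2-fold higher, against 4.07% of all promoter regions. The exact binomial test (Benjamini-Hochberg adjustment over all regions, threshold 0.05) called 12 of 12 lower against a background of 71.7% and 0 higher against 7.68%. After subtraction of the median of all regions, 3 of 12 remained 2-fold lower against 5.0% and 0 were 2-fold higher against 6.9%. Those 3 were the Nr1i3 regions. When 1 region per gene was taken, the one with most signal, the median of 8 genes was -0.64 and that of all 10603 genes with a symbol was -0.58, so the genes as a group were close to the background and Nr1i3 stood apart from the other 7.

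**Figure D1:**
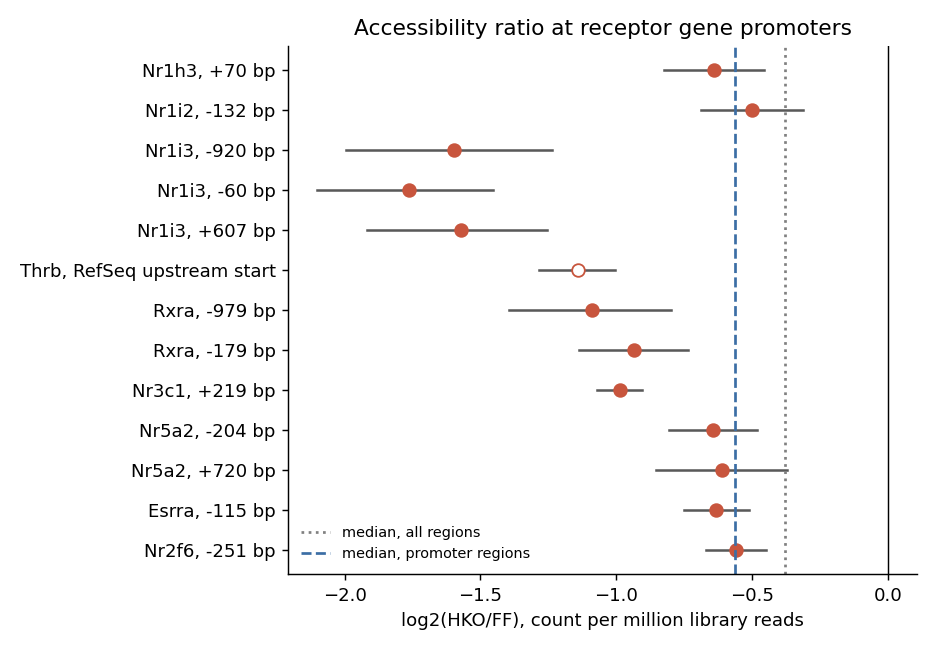
Log2 ratio of HKO over FF (x axis) for each promoter region of the receptor genes (y axis, with the distance of its centre from the TSS in bp). Points are the 2-library ratio, bars the 95% exact interval of counting error, the dotted line the median of all regions and the dashed line that of promoter regions. The open point is the Thrb region over the RefSeq upstream start, which the table assigns to another start. The 3 Nr1i3 regions lie lowest, from -1.76 to -1.57, and Nr1i2 lies nearest to 0, at -0.50.

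Nr1i3, which encodes CAR, the receptor that induces Cyp2b and other drug-metabolising genes, had 3 regions in the table and all lay at its promoter. The region over the TSS (chr1:171213724-171214129, ending in the 5′ UTR) held 333 reads in FF and 107 in HKO. HKO was 3.40-fold lower there, a log2 ratio of -1.76 (95% interval -2.10 to -1.46). The intergenic region centred 920 bp upstream (chr1:171212904-171213229) held 225 reads in FF and 81 in HKO, with a log2 ratio of -1.60 (-1.99 to -1.24). The region in intron 1, centred 607 bp downstream (chr1:171214269-171214918), held 286 reads in FF and 105 in HKO, with a log2 ratio of -1.57 (-1.92 to -1.25), and was called a peak in FF and not in HKO. No difference between these 3 regions was resolved, since the upstream minus the TSS region gave 0.16 (-0.34 to 0.67) and the TSS minus the intronic region -0.19 (-0.66 to 0.28). The TSS region was at the 1.42 percentile of all promoter regions and at the 1.3 percentile of the 1000 promoter regions nearest to it in signal.

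The surrounding locus had higher ratios. Within 100 kb of the Nr1i3 TSS, 26 regions of other genes had a median log2 ratio of -0.36, 1 of them was at least 2-fold lower and 4 at least 2-fold higher, and 8 of these were promoter regions with a median of -0.55, from -0.88 to 0.56, none of them 2-fold lower. The neighbour Tomm40l, a mitochondrial import gene, had 559 reads in FF and 549 in HKO at its promoter, a log2 ratio of -0.16. The promoter of Apoa2, an apolipoprotein of HDL, had log2 ratios of -0.83 and -0.88 at its 2 regions.

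Nr1i2, which encodes PXR, had the promoter ratio nearest to 0. Its promoter region (chr16:38294593-38295320, from intergenic sequence into the 5′ UTR) held 533 reads in FF and 414 in HKO, a log2 ratio of -0.50 (-0.69 to -0.31). This is near the median of promoter regions, and after subtraction of the median of all regions the exact binomial test no longer called it, with adjusted p = 0.27. The ratio of Nr1i2 exceeded that of Nr1i3 by 1.27 on the log2 scale (0.90 to 1.65), a difference that is free of library scaling because both genes were counted in the same libraries. Nr1i2 also carried 9 regions beyond the promoter, and 6 of them lay in intron 1 within 15 kb of the TSS. The strongest (chr16:38287327-38288168) held 1269 reads in FF and 1185 in HKO, with a log2 ratio of -0.23 (-0.35 to -0.12). The lowest of the 9 (chr16:38285869-38286206, intron 1) held 532 and 355 reads, a log2 ratio of -0.72. Summed, the 6 intronic regions held 3685 and 2946 reads, and their log2 ratio of -0.46 differed from that of the promoter by 0.042 (-0.16 to 0.24). Taken singly, 2 of the 9 regions had a higher ratio than the promoter, the strongest one by 0.27 (0.044 to 0.49) and a weak one in intron 2, a peak in HKO alone, by 0.61 (0.029 to 1.202), and the other 7 were not resolved from it. Among the 7 of the 9 that were peaks in both libraries, 1 was higher. The highest ratio among regions with at least 50 counts was 0.15 (-0.51 to 0.83), at 36 and 44 reads in intron 1 (chr16:38267036-38267235), which was not distinguishable from 0.

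Nr1h3, which encodes LXR alpha, had 1 region, at its promoter (chr2:91194559-91195351, reaching from intergenic sequence into intron 1). It held 587 reads in FF and 414 in HKO, a log2 ratio of -0.64 (-0.82 to -0.46). It was at the 51.7 percentile of promoter regions of like signal, and its ratio was not distinguishable from those of Nr1i2, Nr5a2, Esrra and Nr2f6. A second region inside the RefSeq extent of Nr1h3 (chr2:91202305-91203216) was assigned to a start without a symbol, and held 742 and 542 reads, a log2 ratio of -0.59.

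Thrb had no promoter region under the rule, because the table gives each gene 1 TSS and places that of Thrb at chr14:17981529, close to the downstream RefSeq start at 17981644. Its 2 member regions were weak, lay in intron 1 and were called peaks in HKO and not in FF. The first (chr14:17983322-17983690) held 8 reads in FF and 37 in HKO, a log2 ratio of 1.94 (0.95 to 3.39), and the second (chr14:17996519-17996756) held 5 and 29 reads, a log2 ratio of 2.19 (1.01 to 4.13). They were among the 3 highest ratios of the 80 regions, at some of the lowest counts. The RefSeq upstream start at 17660960 was covered by a far stronger region (chr14:17659631-17661386) that the table assigned to a start without a symbol 110614 bp away. This region, picked after its values were seen, held 1253 reads in FF and 623 in HKO, a log2 ratio of -1.14 (-1.28 to -1.004), opposite in sign to both member regions. Its ratio lay above that of Nr1i3 by 0.63 (0.28 to 0.99), differed from that of Nr1i2 by -0.64 (-0.88 to -0.41), and was not distinguishable from those of Rxra and Nr3c1. Over the whole RefSeq extent of Thrb, 20 regions assigned to other starts had a median log2 ratio of -0.24, from -1.41 to 1.63, with 2 at least 2-fold lower and 2 at least 2-fold higher. No listed region covered the downstream start, so no ratio was measured there, and both member regions were in the table through the library in which they were high.

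Rxra, a partner with which LXR, PXR, CAR and thyroid hormone receptors bind DNA as dimers, had 25 regions, the most of the 9 genes. Its promoter region over the TSS (chr2:27676694-27677350) held 562 reads in FF and 323 in HKO, a log2 ratio of -0.93 (-1.14 to -0.73). A second one centred 979 bp upstream (chr2:27676067-27676377) held 280 and 144 reads, a log2 ratio of -1.09 (-1.40 to -0.80). Its promoter ratio was lower than those of its partners Nr1h3 by 0.30 (0.021 to 0.57) and Nr1i2 by 0.43 (0.16 to 0.71), and higher than that of Nr1i3. The summed counts of stretches of the locus gave different ratios. The 5 upstream regions together held 1706 and 1004 reads, a log2 ratio of -0.90, and the 11 regions of intron 1 held 1250 and 799 reads, a log2 ratio of -0.78. Neither sum was resolved from the promoter, but 6 of the 11 regions of intron 1 were called peaks in FF alone and 1 in HKO alone, and so were listed through the library in which they were high. The 4 called in both libraries, a choice made after the values were seen, held 452 and 348 reads, a log2 ratio of -0.51, above the promoter by 0.47 (0.21 to 0.74). The 4 regions from intron 2 to the last intron held 717 and 600 reads, a log2 ratio of -0.39, which was above the promoter by 0.59 (0.36 to 0.82), although 2 of the 4, both called peaks in FF alone, were at -0.86 and -0.92 and were not resolved from it. The other 2 held 510 and 478 reads, a log2 ratio of -0.23, above the promoter by 0.76 (0.51 to 1.005). The 3 regions past the 3′ end by the table's gene model, the nearest of which (chr2:27763123-27763492) lies partly inside the RefSeq extent that ends at 27763319, held 427 and 481 reads, a log2 ratio of 0.036, above the promoter by 1.02 (0.77 to 1.28). The highest and nearest of the 3, at 128 and 171 reads, was called a peak in HKO alone, and the lowest, at 109 and 94 reads, in FF alone. The one called in both held 190 and 216 reads, a log2 ratio of 0.048 (-0.24 to 0.34), above the promoter by 1.03 (0.70 to 1.37). The intervals of the 3 together, from -0.15 to 0.23, and of that one lay wholly above the median of all regions of -0.38.

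Single Rxra regions ranged more widely. The upstream region centred at 37186 bp (chr2:27639728-27640302) held 211 reads in FF and 77 in HKO, and the one at 41868 bp (chr2:27635176-27635490) held 105 and 38, both with a log2 ratio of -1.58 and both lower than the promoter. The second was called a peak in FF alone and so was listed through the library in which it was high. The strongest region beyond the promoter, centred 52206 bp upstream (chr2:27624655-27625335), held 661 and 448 reads, a log2 ratio of -0.70. The highest ratio was 0.34 (-0.21 to 0.91), at 48 and 67 reads in intron 1 (chr2:27715251-27715458), a peak in HKO alone, and was not distinguishable from 0. Peaks were called in FF and not in HKO at 10 of the 25 regions, and in HKO and not in FF at 2, against 16.8% and 21.5% of all regions.

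Nr3c1, the glucocorticoid receptor, had the most promoter reads of the 9 genes, over the longest region. This single region of 2914 bp (chr18:39488999-39491912, reaching into intron 1) held 3211 reads in FF and 1779 in HKO. HKO was 1.98-fold lower, a log2 ratio of -0.99 (-1.07 to -0.90), just short of the 2-fold bound and at the 12.7 percentile of promoter regions of like signal. Its ratio was not distinguishable from that of Rxra and was lower than those of Nr1h3, Nr1i2, Nr5a2, Esrra and Nr2f6. Of 18 regions away from the promoter, 15 had a higher ratio than the promoter by an interval that left out 0. Among the 11 regions called peaks in both libraries this was 10, and the other 7 (4 called in HKO alone and 3 in FF alone) were listed through 1 library only. Regions beyond the promoter had a higher median than promoter regions in the whole table (-0.27 and -0.56), and against 1000 regions of like signal these 18 spread from the 16.1 to the 90.1 percentile. Distances are from the TSS used by the table, at chr18:39490674, and the RefSeq extent of Nr3c1 reaches further upstream, to 39519421. The 11 regions over 50 kb upstream of the first together held 792 and 887 reads, a log2 ratio of 0.027. This was above the promoter by 1.02 (0.85 to 1.18), but single regions ran from -1.01 to 2.06. The 6 of them called peaks in both libraries held 668 and 673 reads, a log2 ratio of -0.13, above the promoter by 0.86 (0.68 to 1.04). The 4 regions of intron 2 held 436 and 386 reads, a log2 ratio of -0.31, above the promoter by 0.68 (0.46 to 0.89).

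The region centred 133762 bp upstream (chr18:39624255-39624618) held 59 reads in FF and 134 in HKO, a log2 ratio of 1.03 (0.60 to 1.51). The region at 128746 bp held 18 and 50 reads, a log2 ratio of 1.29, and the region at 86745 bp held 6 and 31 reads, a log2 ratio of 2.06 (0.95 to 3.79), but both were called peaks in HKO and not in FF and were listed through the library in which they were high. The strongest distal region went the other way, since the one at 62639 bp (chr18:39552828-39553799) held 248 and 135 reads, a log2 ratio of -1.01 (-1.33 to -0.70). It also had the lowest ratio among regions with at least 50 counts summed, and the one at 128746 bp had the highest. The regions at 128746 and 86745 bp were under 1 RPM, where regions beyond the promoter had a median of 0.25 across the whole table. The region at 133762 bp was in the class of 1 to 3 RPM, which had a median of -0.29.

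Nr5a2, which encodes LRH-1, an activator of bile acid and cholesterol genes, had 17 regions. Its promoter region over the TSS (chr1:136960323-136960982) held 762 reads in FF and 536 in HKO, a log2 ratio of -0.64 (-0.81 to -0.48), and the one at the start of intron 1 (chr1:136959502-136959955) held 342 and 246, a log2 ratio of -0.61. Both were near the median of promoter regions. The strongest region lay 6349 bp upstream in intergenic sequence (chr1:136966092-136967504), with 987 reads in FF and 420 in HKO, a log2 ratio of -1.37 (-1.54 to -1.20). Its difference from the 2 promoter regions together was -0.73 (-0.95 to -0.52), so the libraries differed more at this upstream region than at the TSS. Among the introns, the lowest ratio was -1.57 (-1.92 to -1.24), at 274 and 101 reads in intron 3 (chr1:136945983-136946376). The highest ratios were 0.91 (0.53 to 1.32), at 81 and 168 reads in intron 1 (chr1:136955132-136955611), and 0.89 (0.27 to 1.58), at 31 and 64 reads in intron 7 (chr1:136886728-136887016). The first of these was called a peak in HKO and not in FF, so that it was listed through the library in which it was high, and it was the 1 region above 0 among the 6 of the first 3 introns, which summed to a log2 ratio of -0.59, and to -0.88 over the 4 called in both libraries. In the last intron, the strongest region that the table assigned to a different start (chr1:136859444-136859854), a peak in both libraries, had 66 and 150 reads, a log2 ratio of 1.04 (0.62 to 1.49).

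**Figure D2:**
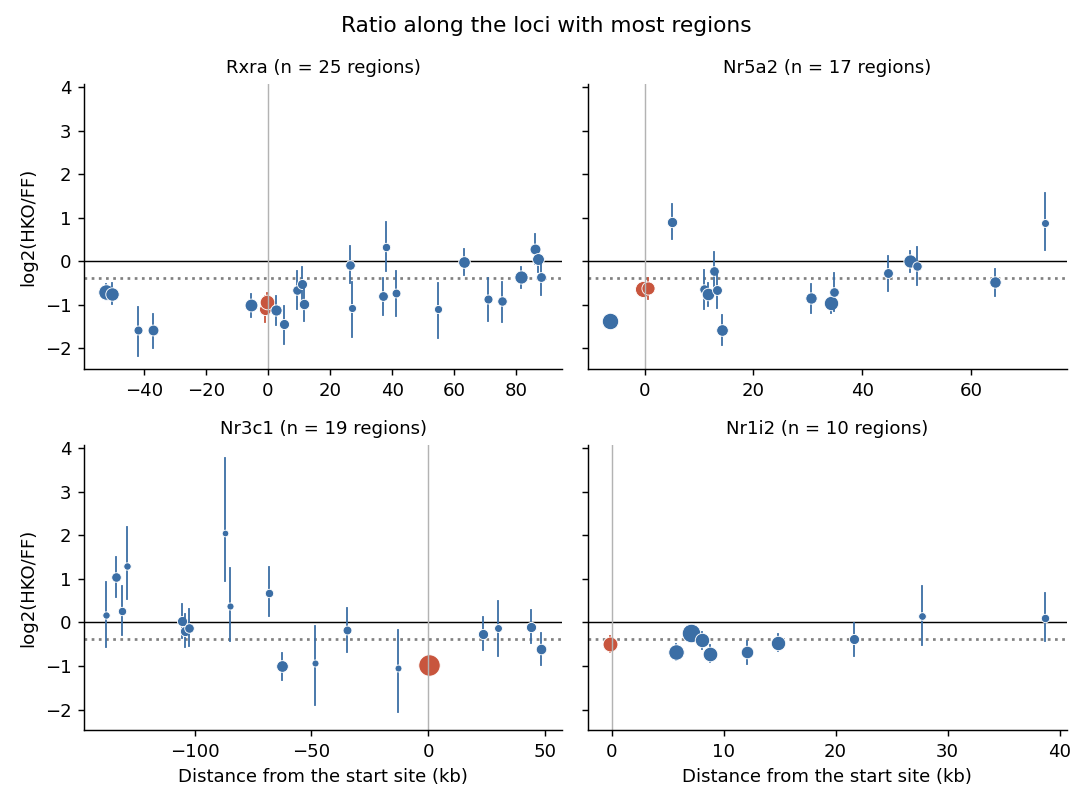
Log2 ratio of HKO over FF (y axis) against distance from the TSS in kb (x axis, negative upstream) for the 4 genes with most regions. Points are regions, larger with higher mean RPM, bars are 95% exact intervals of counting error, red marks promoter regions and the dotted line is the median of all regions. Rxra sums to -0.98 at its promoter and 0.036 past its 3′ end by the table's gene model (0.048 at the 1 region called a peak in both libraries), and 15 of 18 Nr3c1 regions away from the promoter lie above it beyond counting error (10 of 11 among the regions called peaks in both libraries).

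Esrra, which encodes ERR alpha, a regulator of oxidative metabolism, had 1 region, at its promoter (chr19:6921382-6922465), which at one end reaches a 3′ UTR by the table's annotation. It held 1371 reads in FF and 972 in HKO, a log2 ratio of -0.63 (-0.75 to -0.51), at the 49.7 percentile of promoter regions of like signal. Nr2f6, an orphan receptor that acts mostly as a repressor, had a promoter region (chr8:71381448-71382975) of 1568 and 1170 reads, a log2 ratio of -0.56 (-0.67 to -0.45). Both promoters were near the median of their class. A second Nr2f6 region, centred 1684 bp upstream (chr8:71383453-71383837), held 343 and 182 reads, a log2 ratio of -1.05 (-1.32 to -0.79), a difference from the promoter of -0.49 (-0.78 to -0.20).

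Ordered by promoter ratio from the lowest, the genes were Nr1i3, Nr3c1, Rxra, Nr5a2, Nr1h3, Esrra, Nr2f6 and Nr1i2. Of the 28 pairs, 17 differed by an interval that left out 0. All 7 pairs with Nr1i3 did, Nr3c1 and Rxra did not differ from each other beyond counting error but were each below the 5 genes that follow, and no pair among those 5 was resolved. The fold enrichment of reads over the library mean density sets the levels of the genes side by side per length. In FF the strongest region of each gene stood at 37.9 to 65.4, with Esrra highest and Nr1i2 lowest, and Nr1i3 at 42.5 lay inside that range. In HKO Nr1i3 stood at 12.5 and the other genes at 23.2 to 42.2, so Nr1i3 was lowest in the HKO library alone.

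**Figure D3:**
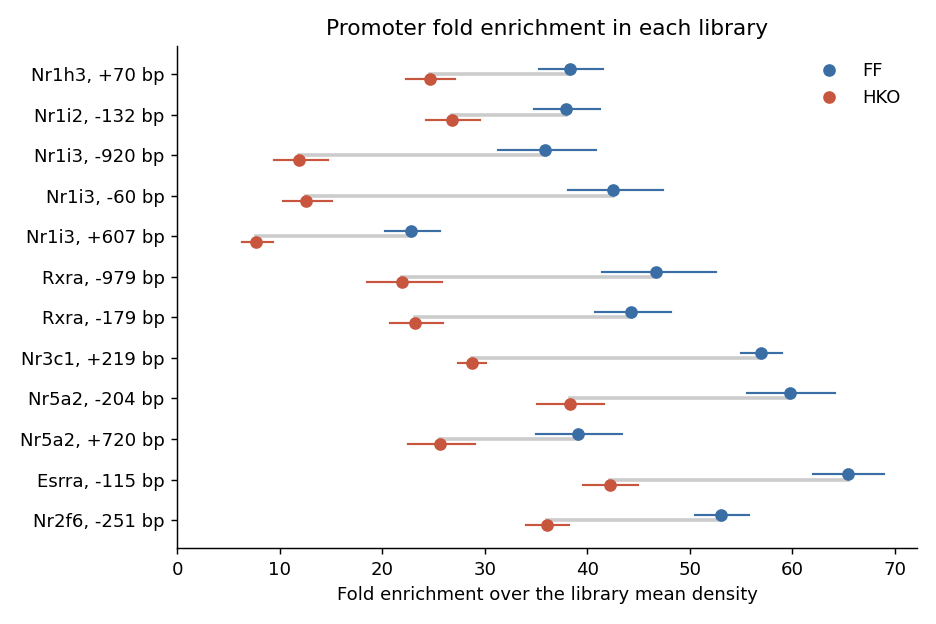
Fold enrichment of read density over the library mean (x axis) at each promoter region (y axis, distance from the TSS in bp) in the FF library (blue) and the HKO library (red). Bars are 95% intervals of counting error. Every region is lower in HKO, and the 3 Nr1i3 regions stand at 22.8 to 42.5 in FF and 7.67 to 12.5 in HKO.

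Beyond the promoter, the 68 regions had a median log2 ratio of -0.44, from -1.58 to 2.19, against -0.27 for all such regions, and 17 were above 0. At least 2-fold lower were 12 of 68, against a background of 18.8%, and at least 2-fold higher were 5, against 15.6%. The exact binomial test called 37 lower against 41.5% and 8 higher against 23.6%. This balance turns with the scale, since centring on the top 10% of promoters by signal gave 10 lower, against 15.2% of all such regions, and 27 higher, against 45.8%, and a median of 0.21. After subtraction of the median of all regions, 4 were 2-fold lower against 8.65% and 8 were 2-fold higher against 23.5%. Of the 12 lower regions 7 belonged to Rxra, 2 each to Nr5a2 and Nr3c1 and 1 to Nr2f6, and the 5 regions at least 2-fold higher were 3 of Nr3c1 and 2 of Thrb. Of the 12 lower regions 6 were called peaks in FF alone (5 of Rxra and 1 of Nr3c1), and of the 5 higher ones 4 were called in HKO alone (2 each of Nr3c1 and Thrb), so that these 10 were listed through the library in which they were high. Signal moved with the ratio in the same way as in the whole table. The 13 regions under 1 RPM had a median of 0.17, against 0.25 for all regions of that class, the 33 regions of 1 to 3 RPM had -0.27 against -0.29, and the 22 regions over 3 RPM had -0.71 against -0.63. Of all 80 regions, 54 (67.5%) were called peaks in both libraries, 14 (17.5%) in FF alone and 12 in HKO alone, against 61.7% in both, 16.8% in FF alone and 21.5% in HKO alone for all regions.

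**Figure D4:**
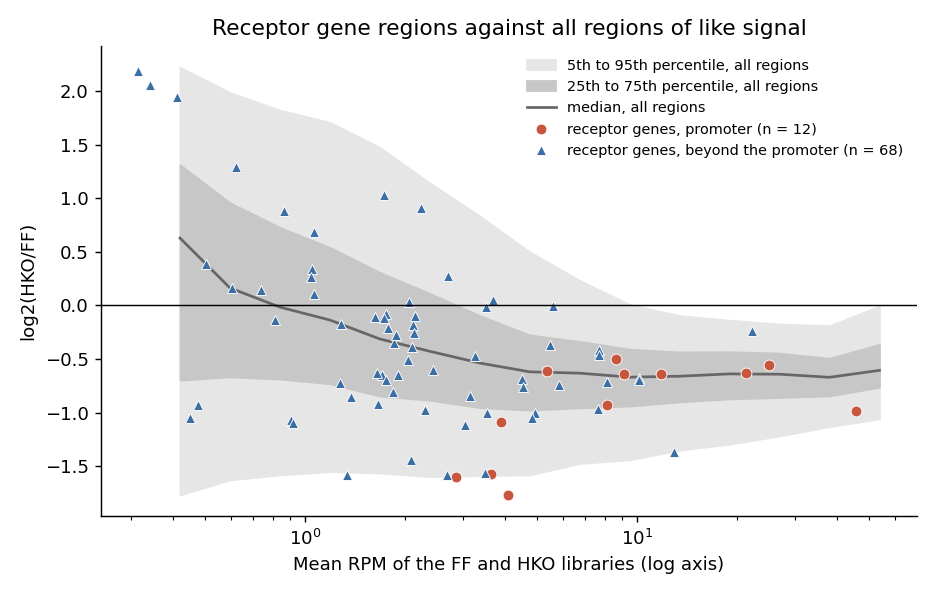
Log2 ratio of HKO over FF (y axis) against mean RPM of the 2 libraries (x axis, log scale) for the 80 regions of the receptor genes. Circles are promoter regions and triangles regions beyond, the line and grey bands are the median and percentiles of all regions in bins of signal. The 3 Nr1i3 promoter regions lie near or below the 5th percentile, and the others mostly follow the median, which falls with signal.

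The base composition of the promoters was set beside these ratios, and its relation to them was not tested. RefSeq windows were found for 8 of the 9 genes, and none for Nr3c1. By the ratio of observed to expected CpG in the 250 bases before the start, with 0.6 as the bound, the windows of Rxra, Esrra, Nr2f6 and the upstream start of Thrb were CpG-rich (0.785 to 0.997), and those of Nr1i3, Nr1i2, Nr1h3 and Nr5a2 over a listed region were CpG-poor (0.12 to 0.35). Nr1i3 at 0.12 and Nr1i2 at 0.17, the lowest and the highest promoter ratios, were both CpG-poor. Over all regions with a RefSeq window, the median log2 ratio was -0.54 for 3602 CpG-poor and -0.59 for 6772 CpG-rich regions, and 18.4% and 13.5% were at least 2-fold lower. The half-site stood 64 bases before the start of Nr5a2 and 184 bases before the upstream start of Thrb, 2 more stood 87 and 48 bases before a second RefSeq start of Rxra without a listed region, and GC boxes were most frequent at Nr2f6, with 7.

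The other genes of these pathways were taken from lists chosen with earlier results of these data known, each gene by its strongest promoter region. Of all genes with a symbol, 15.3% were at least 2-fold lower and 2.6% at least 2-fold higher. Of 33 other nuclear receptor genes, 28 had a promoter region, with a median log2 ratio of -0.67, and 8 were at least 2-fold lower and 0 higher. The highest was Rora, a clock receptor, at 18 reads in FF and 34 in HKO (0.75). Of 11 coregulators, which receptors recruit to activate or repress genes, 10 had one, with a median of -0.47 and 2 at least 2-fold lower. Ppargc1b was lowest (565 and 237 reads, -1.39) and Nrip1 highest (1603 and 1381 reads, -0.35).

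The promoters of target genes were described by the receptor that is known to control them. LXR targets (7 of 8 with a region, median -0.51) ranged from Srebf1, the lipogenic regulator, at 336 and 190 reads (-0.95) to Mylip, which degrades the LDL receptor, at 61 and 151 reads (1.16), the one LXR target that was at least 2-fold changed. PXR and CAR targets (6 of 10, median -0.68) ranged from Cyp2c29 at 190 and 53 reads (-1.96) to Gsta1 at 204 and 197 reads (-0.19), and Cyp2b10, the classical CAR target, had 121 and 71 reads (-0.90). Only Cyp2c29 among these 6 was at least 2-fold lower. LRH-1 targets (5 of 6, median -1.08) went in both directions. Cyp8b1, the sterol 12-alpha-hydroxylase of bile acid synthesis, was lowest at 379 and 125 reads (-1.73), while Cyp7a1, the rate-limiting enzyme of that pathway, was highest at 170 and 318 reads (0.76). In all, 3 of the 5 were at least 2-fold lower.

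Glucocorticoid receptor targets (8 of 9, median -0.71) ranged from Mt2, a metallothionein, at 1443 and 335 reads (-2.24) to Klf9 at 1381 and 1106 reads (-0.46), with 3 at least 2-fold lower. Thyroid hormone receptor targets (5 of 6, median -0.62) ranged from Thrsp, a lipogenic protein, at 747 and 406 reads (-1.01) to Bcl3 at 162 and 141 reads (-0.33), with 1 at least 2-fold lower. ERR alpha targets (5 of 7, median -0.69) were the most even, from Cs, citrate synthase, at 894 and 584 reads (-0.75) to Atp5b, an ATP synthase subunit, at 655 and 582 reads (-0.31), with none at least 2-fold changed. Hepatocyte markers (median -0.65), which are not chosen for any receptor, had 2 of 8 at least 2-fold lower. The medians of the receptor, coregulator and target lists ran from -1.08 to -0.47 beside -0.58 for all genes, and no list was tested as a set. Nr0b2, Klf9, Tat and Hnf4a each stand on 2 lists.

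**Figure D5:**
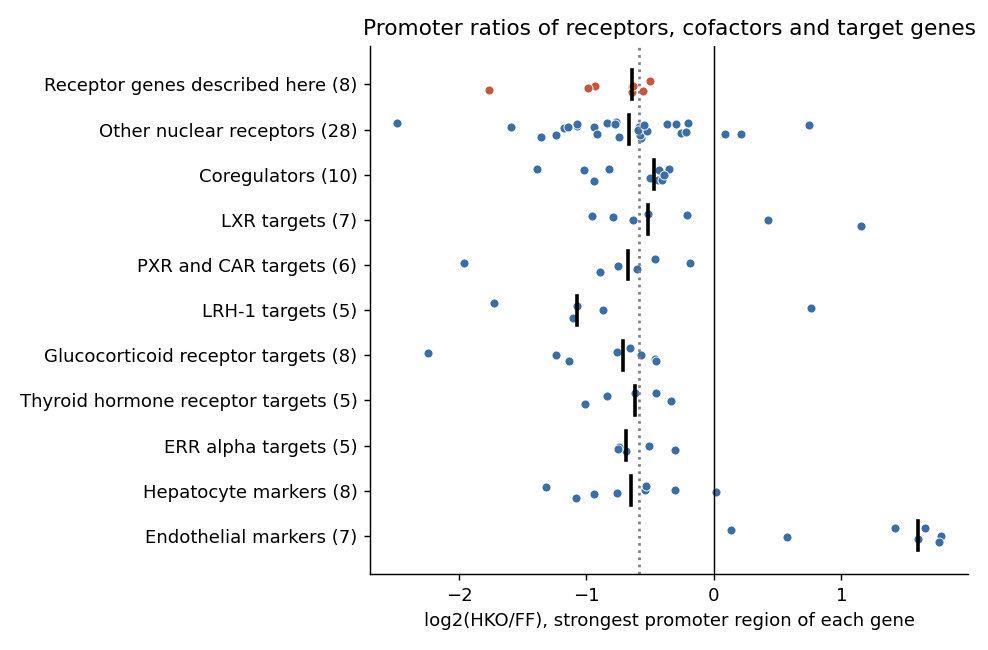
Log2 ratio of HKO over FF (x axis) at the strongest promoter region of each gene, by list (y axis, with the number of genes that had a region). Points are genes, black bars list medians and the dotted line the median of all genes. Nr1i3 at -1.76 is the lowest of the 8 receptor genes, and all 7 endothelial markers lie above 0. The macrophage (2 genes, both above 0), stellate and cholangiocyte markers are not drawn.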

How the data were processed

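Per the labels and the study's methods, nuclei were taken from liver and tagged with Tn5 transposase, and the authors trimmed adaptors, aligned read pairs with BWA to GRCm38, dropped mitochondrial, low-quality and improperly paired reads, and called peaks per library with MACS2, keeping duplicates. How peaks were merged and counted, and whether read ends were shifted for Tn5, is not given in the sources used here. The authors deposited, per region and library, read counts, RPM values with 1 read added, and a fold enrichment ratio over the library mean density. Their log2 fold change column was not used.

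The table's 74821 rows held 5272 repeats, which were dropped. Library totals were recovered from counts and RPM. Ratios with 1 read added, Clopper-Pearson intervals and exact two-sided binomial tests were computed in Python 3.11.15 with scipy 1.17.1, numpy 2.4.6 and pandas 2.3.3, and conditional odds ratios gave the differences between regions. The binomial code was tested on simulated data. Promoter sequences came from RefSeq (GRCm38.p6).

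The members and lists were chosen with earlier results of these data known. Named were every promoter region of the 9 genes; beyond the promoter, for each gene, the region with most signal and the highest and lowest ratios among regions with at least 50 counts summed; and, for each list, the lowest and highest gene. One gene that this rule names is not reported here. Other regions named were chosen after their values were seen. The alternatives tried were 2 centrings, 10 reads added, other promoter windows, a fold bound of 1.5, counts summed per gene, the upper 50% of signal and, added after the values were seen, segments held to peaks of both libraries.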

Additional observations from a re-analysis of the deposited data

How the results depend on the processing

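With 1 library in each group, no library could be left out. No paired analysis was possible because each group has 1 library and the comparison is a single pair. The scale decides the medians. At promoter regions the median of -0.79 became -0.41 after centring on all regions, -0.14 after centring on the top 10% of promoters by signal, -0.64 within 500 bp and -0.64 with counts summed per gene, and beyond the promoter -0.44 became -0.062 and 0.21 under the 2 centrings and -0.60 in the upper 50% of signal. Counts below carry in brackets the percent of all regions of the class called at the same setting. Of the 4 promoter regions at least 2-fold lower (16.3%), 1 (1.99%) was left after centring on the top promoters, a bound of 1.5-fold gave 10 (47.8%), and the exact binomial count of 12 (71.7%) became 6 (22.0%) after centring on the top promoters. Beyond the promoter, the 12 regions at least 2-fold lower (18.8%) became 4 (8.65%) and 0 (4.69%) under the 2 centrings, 7 (15.01%) with 10 reads added and 31 (36.5%) at 1.5-fold. The 5 at least 2-fold higher (15.6%) became 8 (23.5%), 9 (30.2%), 3 (10.2%) and 8 (24.3%) in the same order and 1 of 47 (4.95%) in the upper 50% of signal. There the exact binomial test gave 21 (25.2%) and 10 (15.2%) lower in place of 37 (41.5%), and 15 (35.3%) and 27 (45.8%) higher in place of 8 (23.6%). With the Rxra and Nr3c1 segments held to regions called peaks in both libraries, a choice made after the values were seen, the sums of Rxra intron 1 (-0.51 from -0.78), Rxra intron 2 to the last intron (-0.23 from -0.39) and Nr3c1 over 50 kb upstream (-0.13 from 0.027) moved beyond their counting intervals. The median over the context genes of -0.65 became -0.27 after centring on all regions. After centring on the top promoters, Nr1i3 (-1.12), Nr3c1 (-0.34) and Rxra (-0.29) stayed below 0, while Nr1i2 (0.15), Nr2f6 (0.088), Esrra (0.015), Nr1h3 (0.0076) and Nr5a2 (0.0036) stood above it, so their direction rests on the scale. Differences between genes in the same libraries are free of it.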
